A study of Homo sapiens with 6 samples.

Results

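The genes of cholesterol synthesis, uptake and efflux were followed in SNU449 cells, an established line from a human hepatocellular carcinoma, after knockdown of MAD2L1. Members were the rows whose symbol equals one of 30 names, namely 18 synthesis enzymes, 4 proteins of sterol sensing, 4 of uptake, transport and esterification, and 4 of efflux and the liver X receptors (LXRs). All 30 were found among the 60589 genes of the table, and 28 of them reached a mean TPM (transcript abundance scaled for transcript length and library total) of 1 and were tested, in a fit across 14790 genes. The study asked what MAD2L1, a spindle checkpoint protein, does in hepatocellular carcinoma cells. Cells had received an siRNA against MAD2L1 (siMAD2L1, 3 libraries) or a control siRNA (siControl, 3 libraries), and both groups carry the day 3 label. The titles of all 3 siMAD2L1 libraries name MAD2L1, whereas the treatment field gives MAD2L2 for replicate 2 and MAD2L3 for replicate 3. The cells are 1 line, and the labels do not say that the libraries came from separate cultures, so p-values here reflect only library-to-library spread, which may be technical. In bulk RNA, fewer cells of a kind and less RNA per cell cannot be told apart.

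MAD2L1 measured 4.47, 0.795 and 2.40 TPM in the siMAD2L1 libraries, against 14.5, 13.7 and 13.9 TPM in the siControl libraries, so every siMAD2L1 library was below every siControl library. Its log2 fold change was -2.22 (limma adjusted p = 0.0105, and 0.0597, 0.0547 and 0.0572 without siControl replicate 1, 2 or 3). MAD2L2, named by the treatment field of 1 library, averaged 138 TPM in siMAD2L1 and 145 TPM in siControl (log2 fold change -0.07, adjusted p = 0.698). Replicate 1 of siMAD2L1 stood apart from the other two, as described with the members below. Mitochondrially encoded genes took 9.21% to 10.9% of the TPM in siMAD2L1 and 15.2% to 15.3% in siControl, a shift that moves every other TPM value. Of the hepatocyte markers, TTR and APOA2 were listed at 0 in every library and ALB averaged 0.311 TPM in siMAD2L1 and 0.365 TPM in siControl, while HNF4A and CYP3A4 stayed under 1 TPM and AFP averaged 1.56 TPM in siMAD2L1 and 1.46 TPM in siControl. The other hepatocyte markers fell: TF averaged 3.98 TPM in siMAD2L1 and 8.83 TPM in siControl (adjusted p = 0.0181), and FGB 2.77 TPM in siMAD2L1 and 7.42 TPM in siControl (adjusted p = 0.0142). The part of these markers in the results was not tested. KRT8 and KRT18 averaged 163 and 133 TPM in siMAD2L1, against 222 and 194 TPM in siControl. The other epithelial markers, EPCAM and CDH1, averaged 0.056 and 0.774 TPM in siMAD2L1, against 0.323 and 1.27 TPM in siControl. The mesenchymal markers VIM, CDH2 and FN1 averaged 10847, 31.8 and 56.6 TPM in siMAD2L1, against 9494, 34.3 and 55.4 TPM in siControl. The leukocyte marker CD3E was at 0 throughout, PTPRC did not exceed 0.06 TPM in any library, and CD14 averaged 3.43 TPM in siMAD2L1 and 7.5 TPM in siControl.

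Cholesterol is built from acetyl-CoA through mevalonate and squalene, and the enzymes of both stages are transcribed under SREBP2, the product of SREBF2. SCAP carries SREBP2 from the endoplasmic reticulum to the Golgi for cleavage when membrane sterol is low, and the INSIG proteins hold it back when sterol is high. In the opposite direction, oxysterols bind the LXRs, which raise the transporters that export cholesterol, and liver cells are a main site of both arms.

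Promoter windows of 4 of the 5 members that passed the test, and of SREBF2, are shown because the enzymes of the pathway are classically driven by SREBP2 together with NF-Y, which binds CCAAT. Each is the 250 bases before the RefSeq start (GRCh38.p14, plus strand), 5′ to 3′. RefSeq starts differ from the starts of the GENCODE gene spans given below. The MVK and NR1H2 windows lie inside those spans, and the ARV1 and FDPS windows run into them. ARV1 lies at chr1:230978844-230979093, MVK at chr12:109573544-109573793, FDPS at chr1:155308616-155308865, NR1H2 at chr19:50376207-50376456 and SREBF2 at chr22:41832855-41833104. Capitals mark CCAAT on either strand (ATTGG on the printed one) and, in SREBF2, 1 match to the sterol regulatory element TCACNCCAC.
ARV1: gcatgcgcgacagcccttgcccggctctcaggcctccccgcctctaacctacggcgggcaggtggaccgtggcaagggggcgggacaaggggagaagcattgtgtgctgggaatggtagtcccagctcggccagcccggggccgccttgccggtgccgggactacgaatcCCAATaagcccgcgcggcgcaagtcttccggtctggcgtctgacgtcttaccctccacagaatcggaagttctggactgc
MVK: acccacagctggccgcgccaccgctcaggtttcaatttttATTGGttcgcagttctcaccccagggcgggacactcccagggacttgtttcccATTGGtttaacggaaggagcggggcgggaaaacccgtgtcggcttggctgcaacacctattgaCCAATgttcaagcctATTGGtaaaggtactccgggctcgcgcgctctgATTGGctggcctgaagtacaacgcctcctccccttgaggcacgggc
FDPS: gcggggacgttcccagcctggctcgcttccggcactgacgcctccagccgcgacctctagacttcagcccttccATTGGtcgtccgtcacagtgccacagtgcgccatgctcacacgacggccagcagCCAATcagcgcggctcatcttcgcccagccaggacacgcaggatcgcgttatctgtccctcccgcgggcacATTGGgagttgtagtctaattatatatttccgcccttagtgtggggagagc
NR1H2: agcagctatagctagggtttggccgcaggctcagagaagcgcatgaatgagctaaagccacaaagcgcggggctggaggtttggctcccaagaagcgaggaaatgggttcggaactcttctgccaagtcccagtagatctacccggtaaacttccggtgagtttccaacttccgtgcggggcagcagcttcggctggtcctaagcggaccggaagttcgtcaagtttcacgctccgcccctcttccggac
SREBF2: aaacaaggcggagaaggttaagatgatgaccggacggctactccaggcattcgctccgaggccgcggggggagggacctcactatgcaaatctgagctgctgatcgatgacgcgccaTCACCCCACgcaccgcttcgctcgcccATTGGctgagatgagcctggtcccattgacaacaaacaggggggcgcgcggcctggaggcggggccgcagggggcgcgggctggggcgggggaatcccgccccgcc
MVK held 5 matches to CCAAT, with first bases 210, 157, 94, 79 and 46 bases before the start. FDPS held 3, at 176, 122 and 51 bases. ARV1 held 1, at 80 bases, and NR1H2 held 0. The other fallen member, NR1H3, has 4 listed starts and is not printed.

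Among the members, 26 of 30 were matched in the RefSeq promoter table. At least 1 CCAAT stood in the window of 13 of 15 synthesis enzymes (86.7%) and 7 of 11 other members (63.6%), against 40.2% of 15843 protein-coding genes in the same table. At least 2 stood in 9 enzymes (60%) and 2 other members (18.2%), against 13.7% of protein-coding genes. Matches were counted on both strands, and matches that overlap each other were counted separately. TCACNCCAC, searched on both strands as well, was found in 1 of 26 members (SREBF2, 133 bases before the start, sharing no base with its CCAAT) and in 1.19% of protein-coding genes. These are letter matches in a short window, not measured binding. The dense CCAAT windows belonged both to members that fell, MVK and FDPS, and to members that did not pass the test, such as NSDHL with 5 and MSMO1 with 4 matches.

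**Figure D1:**
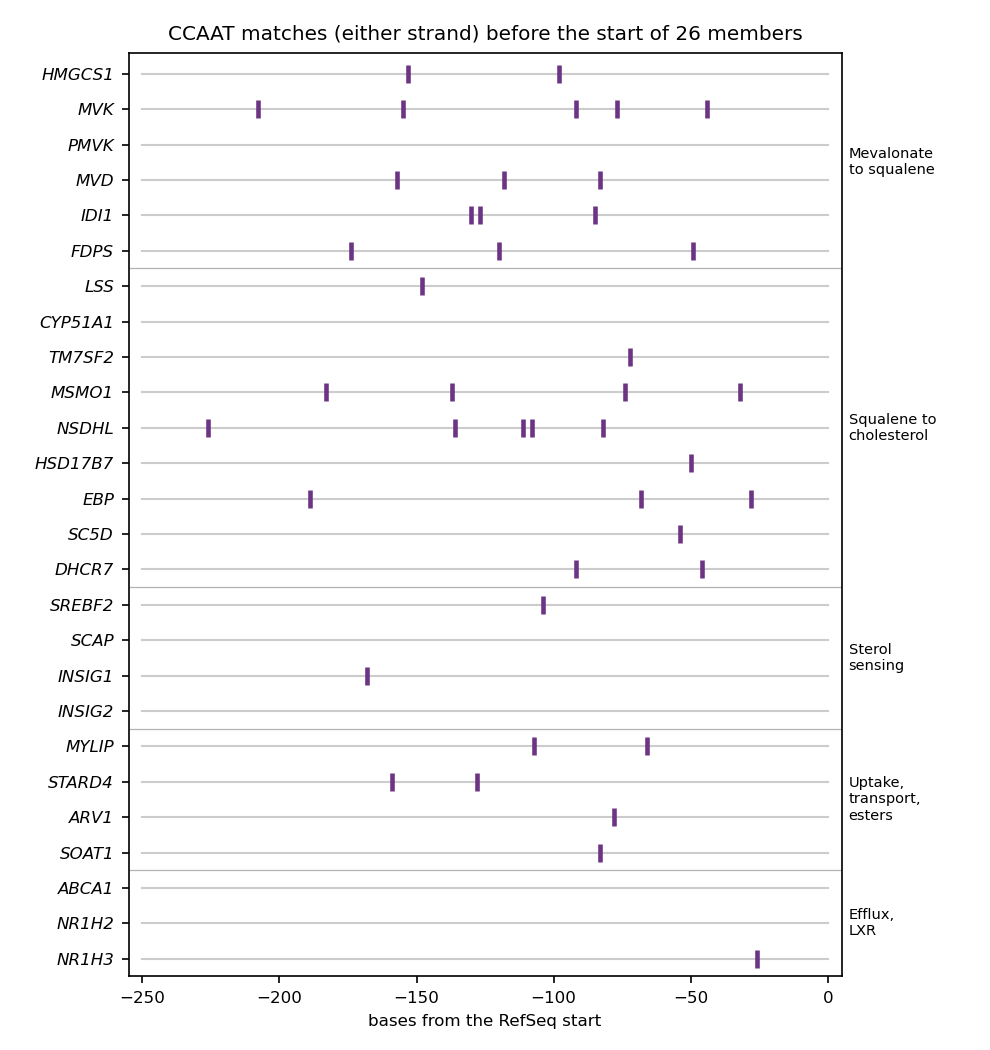
CCAAT matches on either strand, as bases from the RefSeq start (x axis), for the 26 members in the promoter table, grouped by role; where a gene has several starts, the window with the most matches is drawn. Most synthesis enzymes carry 1 to 5 matches, and PMVK and CYP51A1 carry 0.

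Knockdown of MAD2L1 went with lower mRNA of 4 members and higher mRNA of 1. ARV1, NR1H3, MVK and FDPS fell, to 28.995%, 51.8%, 62.3% and 75.4% of the siControl mean TPM, and NR1H2 rose to 129%. The other 23 tested members did not pass an adjusted p of 0.05. The called share was 14.3% lower and 3.57% higher, against 6.23% lower and 3.55% higher among all genes tested (9.78% called in all). The groups did not overlap at 10 members that were lower in siMAD2L1 (35.7%) and at 3 that were higher (10.7%), against 21.5% and 11.3% of all genes. The median log2 fold change of the members was -0.09, beside -0.08 for all genes tested. Of all calls 63.7% were lower in the fit as reported, 52.5% with upper-quartile scaling, 50.6% with quantile normalization and 44.4% with a transcript-length trend removed, a setting chosen after seeing the data. Under these 3 settings 3, 3 and 2 members were lower and 2, 2 and 3 were higher. After the mitochondrial and the 20 highest genes were dropped and TPM rescaled, the same 5 members were called, NR1H2 narrowly (adjusted p = 0.0496). DHCR7 and TM7SF2 were lower as well (adjusted p = 0.0373 and 0.0497). That fit called 11.3% of all genes tested, and 73.2% of its calls were lower.

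**Figure D2:**
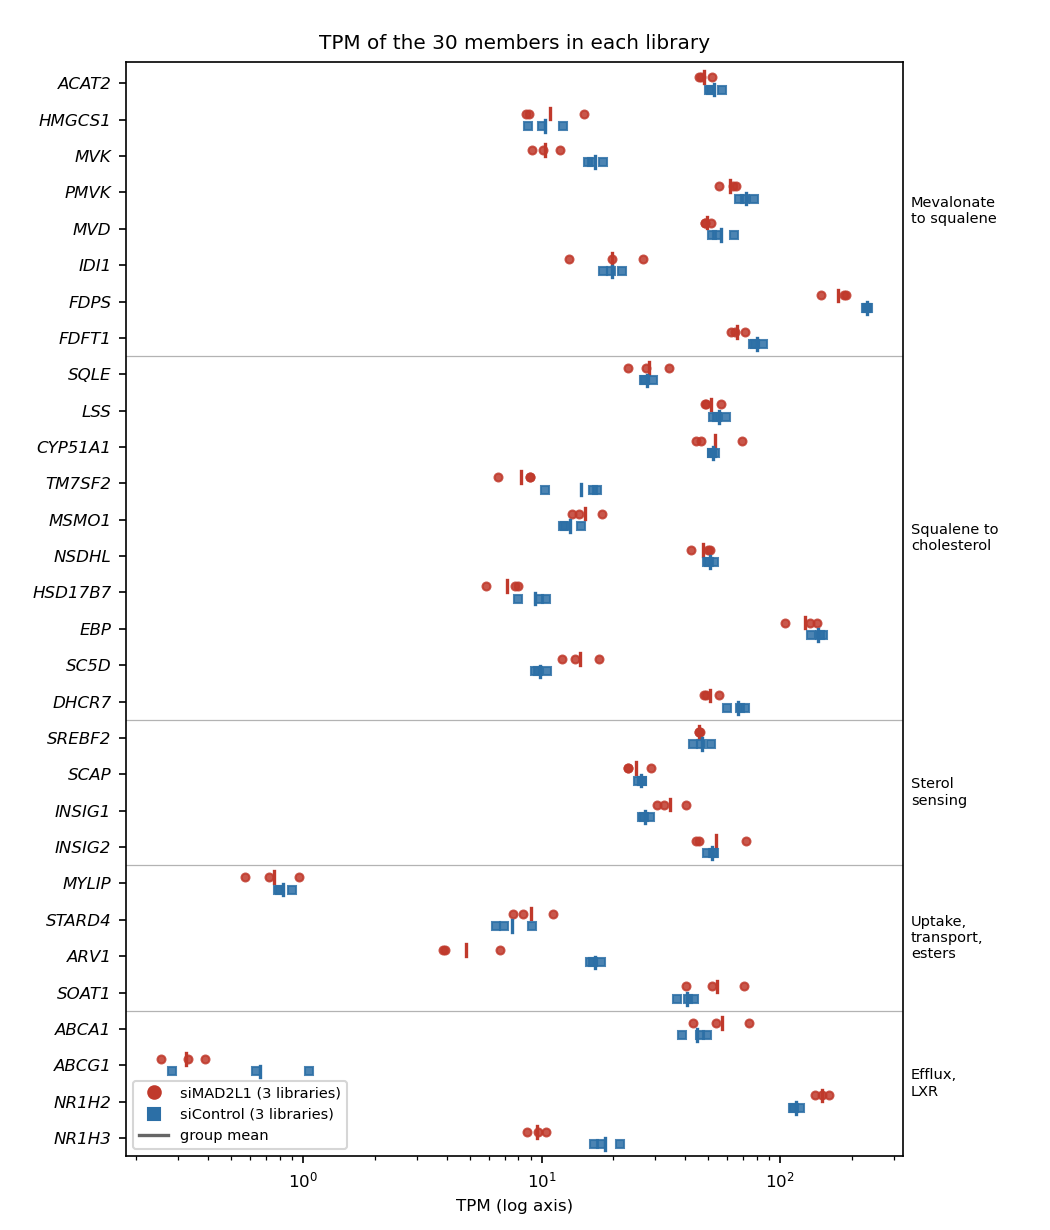
TPM (log axis) of the 30 members in each siMAD2L1 library (circles) and siControl library (squares), with a bar at each group mean, by role. The siMAD2L1 points of ARV1 and NR1H3 lie well to the left of the siControl points, whereas those of HMGCS1, IDI1 and SQLE lie on both sides of them.

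Of the 8 enzymes from acetyl-CoA to squalene, 7 had lower point estimates in siMAD2L1, as had 8857 of the 14790 genes tested. MVK and FDPS fell, 0 rose and 6 did not pass the test, with a median log2 fold change of -0.21. The share called lower was 25%, beside 6.23% of all genes tested. As the members were chosen with earlier results of these data known, that share is a description only. MVK (ENSG00000110921, chromosome 12, 109573255 to 109598117, plus strand, GRCh38) phosphorylates mevalonate. It measured 9.11, 11.9 and 10.2 TPM in the siMAD2L1 libraries, against 15.7, 16.2 and 18.1 TPM in the siControl libraries. The groups did not overlap, and the log2 fold change was -0.64 (SE 0.134, 95% interval -0.95 to -0.33, limma adjusted p = 0.0252). That call was lost without siControl replicate 1, 2 or 3 (adjusted p = 0.0908, 0.0850 and 0.115) and without siMAD2L1 replicate 3 (0.0826). It was also lost with quantile normalization (0.0792), with the transcript-length trend removed (0.0662), without a filter (0.0599) and with a replicate block (0.0542). FDPS (ENSG00000160752, chromosome 1, 155308748 to 155320666, plus strand) makes farnesyl diphosphate, the branch point between sterols and the other isoprenoids. It measured 149, 189 and 185 TPM in siMAD2L1, against 230, 231 and 233 TPM in siControl, the highest level of any member. The siControl libraries were nearly equal, the siMAD2L1 libraries were all lower with replicate 1 lowest, and the log2 fold change was -0.41 (SE 0.0994, 95% interval -0.64 to -0.18, adjusted p = 0.0397). The FDPS call was lost without siControl replicate 1, 2 or 3 (adjusted p = 0.138, 0.117 and 0.133) and without siMAD2L1 replicate 2 or 3 (0.0516 and 0.0752). It was also lost with upper-quartile scaling (0.124) and with the transcript-length trend removed (0.150). The same held without a filter (0.103), without limma's trend (0.102) and with a replicate block (0.0579).

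Strand use in the counting is not given in the sources used here. On the opposite strand, MMAB shares 306 exonic bases with MVK (4.7% of its exons) and averaged 14.9 TPM in siMAD2L1 and 18.7 TPM in siControl. The antisense gene RUSC1-AS1 shares 693 bases with FDPS (18.6%) but averaged 1.52 TPM in siMAD2L1 and 2.94 TPM in siControl. The 8 pseudogenes named after FDPS summed to 0.354 TPM in siMAD2L1 and 0.458 TPM in siControl, far under FDPS itself. The 3 named after CYP51A1 summed to 0.060 TPM in siMAD2L1 and 0.092 TPM in siControl. The 2 named after HSD17B7 summed to 0.913 TPM in siMAD2L1 and 1.385 TPM in siControl. HSD17B7 itself averaged 7.19 TPM in siMAD2L1 and 9.42 TPM in siControl, so its value is less certain. ACAT2 shares bases on the opposite strand with SOD2-OT1 (1458, 33.9%; 0.095 TPM in siMAD2L1 and 0.191 TPM in siControl), with SOD2 (1141, 26.5%; level not analysed here) and with TCP1 (397, 9.2%; 199.9 TPM in siMAD2L1 and 204 TPM in siControl). CYP51A1 shares 2844 bases (79.4%) with AC000120.2 on the same strand, which was listed at 0 in siMAD2L1 and averaged 0.231 TPM in siControl, so the value of CYP51A1 is less certain. No annotated gene shares exonic bases with ARV1 or NR1H2.

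PMVK, the next kinase after MVK, measured 55.5, 63.2 and 65.3 TPM in siMAD2L1, against 77.7, 67.4 and 71.2 TPM in siControl (log2 fold change -0.23, adjusted p = 0.179). MVD, which removes carbon dioxide to give isopentenyl diphosphate, measured 48.5, 51.5 and 48.6 TPM in siMAD2L1, against 51.6, 64.2 and 54.4 TPM in siControl (-0.19, adjusted p = 0.290). FDFT1, the squalene synthase that commits farnesyl diphosphate to sterols, measured 62.4, 64.4 and 71.2 TPM in siMAD2L1, against 84.5, 77.2 and 78.3 TPM in siControl (-0.27, adjusted p = 0.0858). All 3 were lower in every siMAD2L1 library than in any siControl library, yet none passed the test across all genes. ACAT2, the thiolase that opens the pathway, averaged 48.1 ± 3.31 TPM in siMAD2L1 and 53.0 ± 3.51 TPM in siControl (SD, n = 3 each), with overlapping groups. HMGCS1, which makes HMG-CoA, measured 15.1, 8.65 and 8.89 TPM in siMAD2L1, against 12.3, 8.76 and 10.1 TPM in siControl. IDI1, the isomerase before FDPS, measured 26.6, 13.1 and 19.7 TPM in siMAD2L1, against 18.2, 19.5 and 21.6 TPM in siControl. For both, replicate 1 of siMAD2L1 was the highest of the 6 libraries and replicate 2 the lowest, and the 95% intervals of the log2 fold change were wide, -0.48 to 0.55 for HMGCS1 and -0.57 to 0.47 for IDI1.

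The 10 enzymes from squalene to cholesterol gave 0 calls, against 9.78% of all genes, with log2 fold changes of -0.75 to 0.50 and a median of -0.11. At either end of that range the groups did not overlap. TM7SF2, a sterol reductase that acts after lanosterol demethylation, measured 6.596, 8.97 and 8.93 TPM in siMAD2L1, against 17.1, 16.4 and 10.3 TPM in siControl (log2 fold change -0.75, 95% interval -1.24 to -0.26, adjusted p = 0.0634). SiControl replicate 3 was close to the siMAD2L1 libraries, and without it the adjusted p was 0.0494. DHCR7, which reduces 7-dehydrocholesterol to cholesterol, measured 47.8, 48.7 and 55.5 TPM in siMAD2L1, against 67.9, 71.4 and 60.1 TPM in siControl (-0.38, 95% interval -0.62 to -0.15, adjusted p = 0.0529). SC5D, the desaturase whose product DHCR7 uses, lay the other way, with 17.5, 12.2 and 13.9 TPM in siMAD2L1, against 9.36, 9.65 and 10.6 TPM in siControl (0.50, 95% interval 0.15 to 0.85, adjusted p = 0.0764). Thus the last 2 steps of the pathway had point estimates of opposite sign and separate groups, while neither passed the test in the fit as reported. SC5D passed as higher with upper-quartile scaling (adjusted p = 0.0404), quantile normalization (0.0242), library weights (0.00841) and the transcript-length trend removed (0.0258). DHCR7 passed as lower with the TPM filter at 5 (0.0384), with library weights (0.0224) and without mitochondrial and the 20 highest genes (0.0373).

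HSD17B7, a sterol ketone reductase, was the other member of this stage with separate groups, at 7.96, 5.84 and 7.77 TPM in siMAD2L1, against 10.4, 9.80 and 7.999 TPM in siControl (log2 fold change -0.35, adjusted p = 0.230). The remaining 6 overlapped. SQLE, the squalene epoxidase often described as rate-limiting in the later pathway, measured 34.2, 23.1 and 27.3 TPM in siMAD2L1, against 29.3, 27.1 and 27.0 TPM in siControl. CYP51A1, the lanosterol demethylase, measured 69.3, 44.6 and 46.8 TPM in siMAD2L1, against 51.8, 53.2 and 51.8 TPM in siControl. Both had siMAD2L1 replicate 1 as the highest of the 6 libraries and a log2 fold change near 0, with 95% intervals of -0.33 to 0.34 for SQLE and -0.36 to 0.38 for CYP51A1. EBP, the sterol isomerase, measured 105, 143 and 134 TPM in siMAD2L1, against 148, 135 and 151 TPM in siControl, with replicates 1 and 3 below all controls and replicate 2 between them. LSS, which cyclises squalene epoxide to lanosterol, had a log2 fold change of -0.12, and MSMO1 and NSDHL, which act on the methyl groups of lanosterol derivatives, had 0.19 and -0.10. Summed over all 18 enzymes, TPM was 817, 848 and 867 in the siMAD2L1 libraries and 1002, 980 and 971 in the siControl libraries, a description in which FDPS and EBP weigh most.

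**Figure D3:**
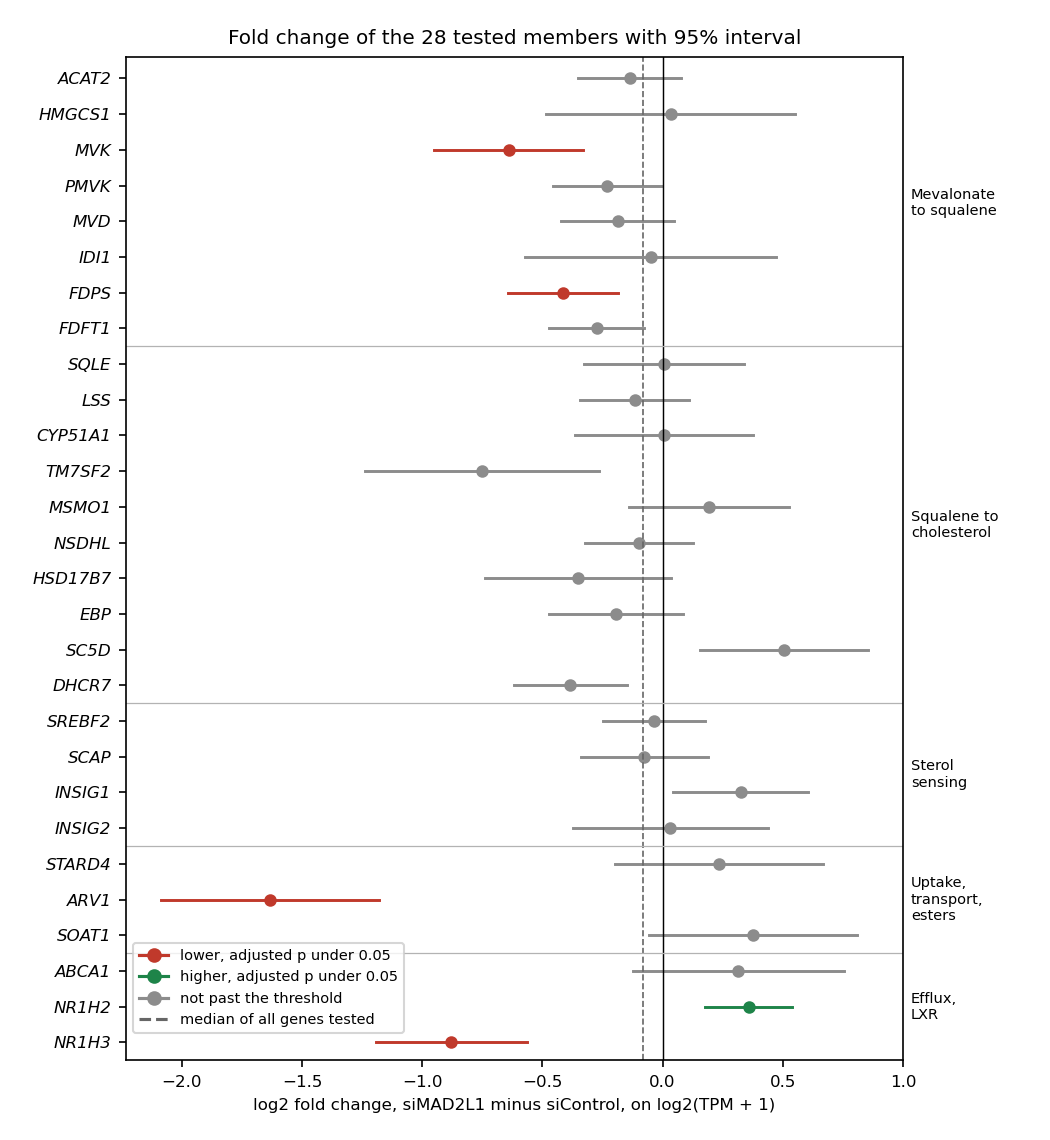
Log2 fold change, siMAD2L1 minus siControl on log2(TPM + 1), of the 28 tested members with 95% intervals, by role; colour marks members past an adjusted p of 0.05 and the dashed line is the median of all genes tested, -0.08. ARV1 lies farthest from 0 at -1.63, and NR1H2 is the sole member called higher.

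None of the 4 sterol-sensing members passed the test. SREBF2 measured 46.3, 45.8 and 45.6 TPM in siMAD2L1, against 46.7, 51.4 and 43.3 TPM in siControl, with a log2 fold change of -0.03 and a 95% interval of -0.25 to 0.18. SCAP averaged a log2 fold change of -0.08 (adjusted p = 0.722), with siMAD2L1 libraries of 23.0, 28.6 and 22.9 TPM on both sides of the siControl libraries of 25.4, 26.5 and 26.4 TPM. INSIG1, itself a classical SREBP target, measured 40.5, 32.7 and 30.5 TPM in siMAD2L1, against 27.0, 28.4 and 26.3 TPM in siControl. Every siMAD2L1 library was above every siControl library for INSIG1, and the log2 fold change was 0.32 (95% interval 0.04 to 0.61, adjusted p = 0.137). INSIG2 measured 71.9, 45.7 and 44.5 TPM in siMAD2L1, against 52.5, 53.1 and 49.2 TPM in siControl, so that replicate 1 lay above and replicates 2 and 3 below all controls. INSIG1 made up 36.0%, 41.7% and 40.6% of the summed TPM of the pair in siMAD2L1 and 33.9%, 34.8% and 34.9% in siControl, without overlap (exact two-sided permutation p = 0.1, the smallest that 3 libraries against 3 can give).

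ARV1 had the largest change of the 28 tested members. It encodes an endoplasmic reticulum membrane protein, and its yeast counterpart is needed for normal sterol distribution between membranes. ARV1 (ENSG00000173409, chromosome 1, 230978981 to 231000595, plus strand) measured 6.71, 3.94 and 3.88 TPM in siMAD2L1, against 16.4, 17.7 and 16.008 TPM in siControl. The means were 4.84 ± 1.62 TPM in siMAD2L1 and 16.7 ± 0.898 TPM in siControl (SD, n = 3 each), and the highest siMAD2L1 library stayed far below the lowest siControl library. The log2 fold change was -1.63 (SE 0.196, 95% interval -2.09 to -1.18, limma adjusted p = 0.00388). ARV1 passed under all 20 alternatives run, with log2 fold changes of -1.85 to -1.20 and adjusted p of 5.93e-05 to 0.0317. Within siMAD2L1, replicate 1 had the most ARV1 and also the most MAD2L1 mRNA. That library was the highest of its group at 53.2% of all genes tested. Replicates 2 and 3 had 0.795 and 2.40 TPM of MAD2L1 beside nearly equal ARV1. NR1H3, MVK and FDPS, also called lower, were lowest in replicate 1. Whether ARV1 follows MAD2L1 was not tested.

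The other members of that role were not called. SOAT1, which esterifies cholesterol for storage, measured 70.7, 40.2 and 52.0 TPM in siMAD2L1, against 41.0, 43.7 and 37.1 TPM in siControl (log2 fold change 0.38, adjusted p = 0.246). STARD4, a soluble sterol carrier, measured 11.2, 7.61 and 8.33 TPM in siMAD2L1, against 9.10, 6.44 and 6.99 TPM in siControl (0.24, adjusted p = 0.472). For both, siMAD2L1 replicate 1 was the highest of the 6 libraries and the groups overlapped. MYLIP, a ubiquitin ligase that an LXR switches on to remove lipoprotein receptors, lay under the filter, at 0.967, 0.722 and 0.571 TPM in siMAD2L1 and 0.899, 0.8 and 0.787 TPM in siControl.

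The LXR pair moved in opposite directions. NR1H3 (LXR alpha, ENSG00000025434, chromosome 11, 47248300 to 47269032, plus strand) measured 8.67, 9.69 and 10.4 TPM in siMAD2L1, against 16.6, 17.7 and 21.3 TPM in siControl. Its log2 fold change was -0.88 (SE 0.136, 95% interval -1.19 to -0.56, limma adjusted p = 0.00917), and it was called lower in 19 of 20 alternatives. The exception was the fit without siControl replicate 3, the highest library, where the log2 fold change was -0.78 and the adjusted p 0.0526. ACP2 on the opposite strand shares 189 exonic bases with NR1H3 (4.2%) and averaged 23.2 TPM in siMAD2L1 and 26.7 TPM in siControl. NR1H2 (LXR beta, ENSG00000131408, chromosome 19, 50329653 to 50382982, plus strand) measured 141, 149 and 160 TPM in siMAD2L1, against 115, 122 and 113 TPM in siControl. It rose, with separate groups and a log2 fold change of 0.36 (SE 0.0784, 95% interval 0.18 to 0.54, adjusted p = 0.0294). This call was lost without siControl replicate 1, 2 or 3 (adjusted p = 0.128, 0.0661 and 0.115) and without siMAD2L1 replicate 2 or 3 (0.0730 and 0.0992). It was also lost without a filter (0.0583), without limma's trend (0.0890) and with a replicate block (0.0634). NR1H2 was the more abundant of the pair in every library, on the length-scaled TPM. NR1H3 made up 5.81%, 6.10% and 6.10% of their summed TPM in siMAD2L1 and 12.6%, 12.7% and 15.8% in siControl, again without overlap (exact two-sided permutation p = 0.1).

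**Figure D4:**
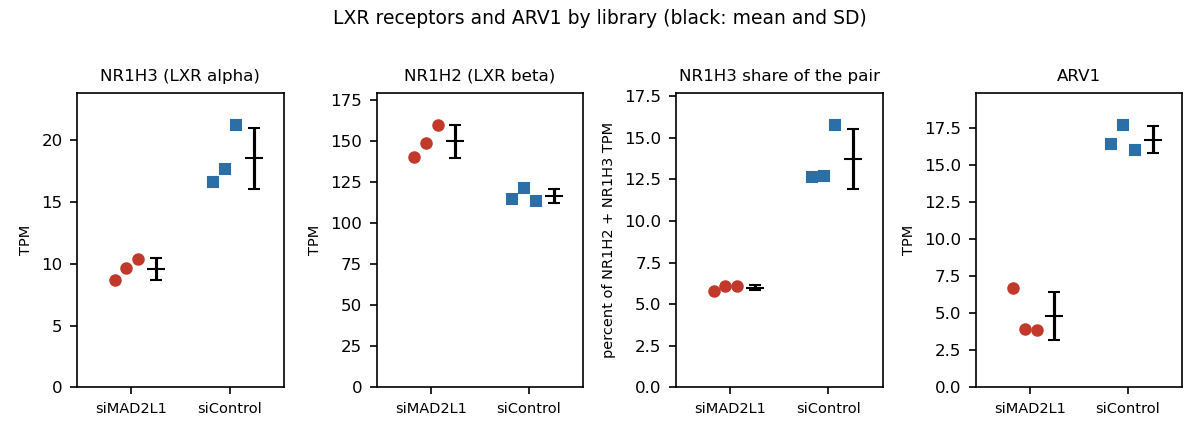
TPM of NR1H3 and NR1H2, the share of NR1H3 in their summed TPM (percent) and TPM of ARV1 in the siMAD2L1 (circles) and siControl (squares) libraries, with mean and SD in black (n = 3 each); the y axes start at 0 and differ. The groups do not overlap in any panel, and NR1H2 alone is higher in siMAD2L1.

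Of the exporters that LXRs control, ABCA1 did not pass the test and ABCG1 was too low to be tested. ABCA1, which loads cholesterol onto lipid-poor apolipoprotein, measured 74.3, 43.2 and 54.0 TPM in siMAD2L1, against 46.1, 49.4 and 38.9 TPM in siControl. Replicates 1 and 3 of siMAD2L1 were above and replicate 2 within the siControl range, and the log2 fold change was 0.32 (95% interval -0.12 to 0.75, adjusted p = 0.336). ABCG1, which passes cholesterol to mature lipoprotein particles, lay under the filter at 0.255, 0.390 and 0.329 TPM in siMAD2L1 and 0.635, 0.282 and 1.059 TPM in siControl.

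The members differed among the 3 siMAD2L1 libraries. Replicate 1 was the highest or the lowest of the 3 at 27 of the 28 tested members, SCAP being the exception, against 79.6% of all genes tested. It was the highest at 15 members (53.2% of all genes) and the lowest at 12 (26.7% of all genes). It exceeded every siControl library while replicate 2 did not at HMGCS1, IDI1, SQLE, CYP51A1, MSMO1, INSIG2, STARD4, SOAT1 and ABCA1, a grouping made after their values were seen. FDPS, MVK, TM7SF2, EBP and NR1H3 were among the 12 members lowest in replicate 1, as was NR1H2, the sole member called higher. Without replicate 1 the same 5 members were called, while HMGCS1, SQLE, CYP51A1 and INSIG2 took negative log2 fold changes of -0.21, -0.14, -0.19 and -0.19. In a fit of replicate 1 alone against siControl the spread comes from the siControl libraries, and the lone library is assumed to vary like them. In replicate 1, ARV1, NR1H3, MVK, FDPS and NR1H2 had log2 fold changes of -1.20, -1.01, -0.80, -0.63 and 0.27. SC5D, INSIG1, INSIG2 and SOAT1 had 0.77, 0.56, 0.47 and 0.79. The median was -0.0983 for the members and 0.0228 for all genes tested.

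**Figure D5:**
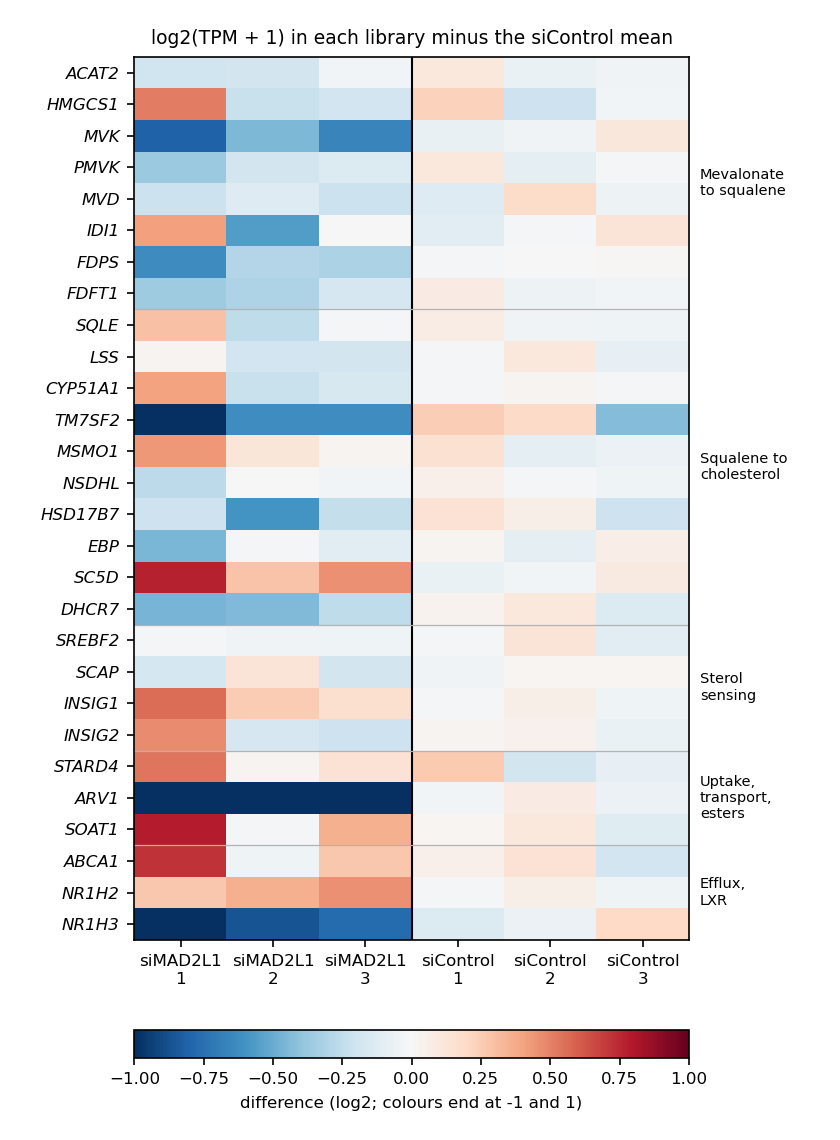
Log2(TPM + 1) of each library minus the siControl mean for the 28 tested members, by role, with the siMAD2L1 libraries left of the line and colours ending at -1 and 1. ARV1, NR1H3 and MVK are low in all 3 siMAD2L1 libraries, whereas HMGCS1, IDI1, SQLE and CYP51A1 are high in replicate 1 and low or near 0 in replicates 2 and 3.

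Genes around the members were read from 7 lists of the same pathways, 116 genes of which 106 were tested. Of these, 10 fell and 4 rose, 13.2% in all beside 9.78% of all genes, and their median log2 fold change was -0.00478. The 12 SREBP targets of fatty acid synthesis gave 3 lower, 0 higher and 9 not called, with a median of -0.28. The share called lower was 25%, beside 6.23% of all genes. The lists were chosen with earlier results of these data known, so that share is a description only. FADS2, a fatty acid desaturase, averaged 42.4 ± 4.46 TPM in siMAD2L1 and 87.2 ± 6.29 TPM in siControl (log2 fold change -1.03, adjusted p = 0.00207). FASN, the fatty acid synthase, averaged 45.8 ± 6.67 TPM in siMAD2L1 and 81.4 ± 6.55 TPM in siControl (-0.82, adjusted p = 0.00818). ACACA, which makes malonyl-CoA for it, averaged 15.0 ± 2.63 TPM in siMAD2L1 and 28.4 ± 0.984 TPM in siControl (-0.89, adjusted p = 0.00808, and 0.0558 without siControl replicate 1). SREBF1, whose products drive that arm, measured 41.8, 46.5 and 47.2 TPM in siMAD2L1, against 64.5, 71.5 and 60.4 TPM in siControl. It fell, with a log2 fold change of -0.53 (adjusted p = 0.0169), where the interval of SREBF2 spanned 0; the difference between these genes was not tested. The SREBF1 call was lost without siControl replicate 1, 2 or 3 (adjusted p = 0.0788, 0.0638 and 0.0500446). It was also lost with the transcript-length trend removed (0.0605).

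Of 23 SREBP processing and sensing genes, 2 rose, 1 fell (SREBF1) and 20 were not called. The share called higher was 8.70% and lower 4.35%, beside 3.55% and 6.23% of all genes tested. SPRING1, which is needed for SREBP cleavage, averaged 34.7 ± 1.38 TPM in siMAD2L1 and 23.2 ± 1.93 TPM in siControl (log2 fold change 0.56, adjusted p = 0.0150). SEC24A, a coat protein of the vesicles that carry SCAP and SREBP, averaged 14.7 ± 3.23 TPM in siMAD2L1 and 7.69 ± 1.47 TPM in siControl (0.85, adjusted p = 0.0311). Of 11 tested partners of the sterol steps, 2 fell and 0 rose (18.2% called, beside 9.78% of all genes). CYB5B, an outer mitochondrial membrane cytochrome, averaged 249.9 ± 20.96 TPM in siMAD2L1 and 549.6 ± 13.1 TPM in siControl (-1.14, adjusted p = 0.000688), and TMEM97, a sterol-binding membrane protein, had -0.51 (adjusted p = 0.0361).

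In the remaining lists at most 1 gene was called each way. The called share was 11.8% in the non-sterol isoprenoid branch and 15.4% in lipoprotein uptake and lysosomal release. It was 5.26% in sterol transfer proteins and 9.09% in the LXR list, beside 9.78% of all genes. Of 17 genes of the non-sterol isoprenoid branch, COQ2, which prenylates the ring of coenzyme Q, fell (log2 fold change -0.49, adjusted p = 0.0331), and RCE1, a protease for prenylated proteins, rose (0.50, adjusted p = 0.0412). Of 13 tested genes of lipoprotein uptake and lysosomal release, VLDLR, a lipoprotein receptor, rose to 81.4 ± 4.63 TPM in siMAD2L1, against 61.6 ± 4.60 TPM in siControl (0.40, adjusted p = 0.0328). Of 19 tested sterol transfer proteins, CAV1, the cholesterol-binding caveolin, fell (-0.48, adjusted p = 0.0234). Of 11 tested LXR partners, LXR targets and genes of oxysterols and esters, SULT2B1, which sulfates cholesterol, fell to 7.12 ± 2.496 TPM in siMAD2L1, against 17.5 ± 1.14 TPM in siControl (-1.24, adjusted p = 0.0184). Of the 14 called genes in these lists, CYB5B, FASN and FADS2 passed under all 20 alternatives. SPRING1, SEC24A, TMEM97, COQ2, RCE1, VLDLR, CAV1 and SULT2B1 each lost the call without any 1 of the siControl libraries (adjusted p = 0.0567 to 0.154). Without siMAD2L1 replicate 2 the calls of SEC24A, TMEM97, COQ2, RCE1 and VLDLR were lost (0.0509 to 0.110), and without replicate 3 those of SEC24A, SPRING1, COQ2, RCE1, VLDLR and CAV1 (0.0615 to 0.125).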

How the data were processed

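RNA-seq of 6 SNU449 libraries was used. The authors deposited 1 table of TPM (abundance scaled for transcript length and library total) with 1 column per library. Per the submitters' processing notes, fastp, HISAT2, DESeq2 1.16.1 and the build hg38 were used. How reads were counted, with which annotation and strand setting, and how TPM was derived is not given in the sources used here. TPM keeps no depth, so library depth is unknown and counting intervals are not printed.

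Titles set the groups. Values were taken as log2(TPM + 1), a scale that understates the change of low genes. Genes whose TPM averaged 1 or more across all 6 libraries, 14790 in number, were fitted with limma 3.58.1 (limma-trend, R 4.3.3), siMAD2L1 against siControl, without covariates. Adjusted p-values in the text are Benjamini-Hochberg values of this fit over all genes tested, called under 0.05. For shares and the targeted genes, exact two-sided permutation tests were run as well. The text names all 30 members, MAD2L1, MAD2L2, and from each pathway list up to 4 called genes with the largest change; some genes that the rule takes are not reported here. Members and lists were chosen with earlier results of these data known.

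The fit was repeated with pseudocounts of 0.1 and 0.5; with the TPM filter off or set to 5; with upper-quartile (over tested genes) or quantile scaling; after dropping mitochondrial and the 20 highest genes; with limma's trend off, robust variance on, or weights per library; with a replicate block; at an adjusted p of 0.01; leaving out every library in turn; and for siMAD2L1 replicate 1 on its own. Removal of a transcript-length trend was chosen after seeing the data. Positions are from GENCODE (GRCh38), promoters from RefSeq (GRCh38.p14), and plots were drawn with matplotlib 3.10.9.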

Additional observations from a re-analysis of the deposited data

How the results depend on the processing

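ARV1 kept its call under all 20 alternatives and NR1H3 under 19, whereas MVK, FDPS and NR1H2 passed in 11, 9 and 10. Over the 5 called members, 69 of 100 recomputed values kept direction and call, 31 lost the call and 0 changed sign. Over the 23 others, 415 of 460 values stayed as they were, 18 passed the threshold and 27 changed sign. In the fit as reported 4 members were lower and 1 higher, of 1446 genes called. These 3 counts were 2, 0 and 727 without a filter, 3, 2 and 1363 with upper-quartile scaling, 3, 2 and 1392 with quantile normalization, 6, 1 and 1661 without mitochondrial and the 20 highest genes, 3, 0 and 952 without a trend, 7, 3 and 4860 with library weights, 2, 0 and 359 at an adjusted p of 0.01, 4, 4 and 1228 with siMAD2L1 replicate 1 alone, and 2, 3 and 1402 with the transcript-length trend removed, which was chosen after seeing the data. With 1 library left out, lower members numbered 2 to 4, higher members 0 to 1 and all calls 326 to 2422. The lowest total of 326 calls came without siControl replicate 1, the highest without siMAD2L1 replicate 1.

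Same-numbered libraries deviated together little (correlations 0.0190, 0.00898 and 0.0631), so the numbers were not taken as pairs, although 4 of 6 libraries correlated best with their own number in the other group. With the replicate block 2 members were lower, 0 higher and 868 genes were called.

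Sign changes concerned genes that were not called, and the values are log2 fold changes. With upper-quartile scaling SREBF2 was 0.0154. With quantile normalization IDI1 was 0.0338. Without mitochondrial and the 20 highest genes HMGCS1, SQLE, CYP51A1 and INSIG2 were -0.0118, -0.0428, -0.0411 and -0.0162, and with library weights -0.24, -0.0608, -0.13 and -0.17. With siMAD2L1 replicate 1 alone IDI1 was 0.41 and LSS 0.0269. With the length trend removed IDI1 was 0.0305, NSDHL 0.00392, SREBF2 0.0230 and MAD2L2 0.0233. With 1 library left out the ranges were -0.0923 to 0.0298 for SREBF2, -0.28 to 0.20 for IDI1, -0.21 to 0.16 for HMGCS1, -0.14 to 0.13 for SQLE, -0.19 to 0.12 for CYP51A1, -0.19 to 0.15 for INSIG2 and -0.15 to 0.0121 for MAD2L2. The cause was not tested. Depth is unknown, and MYLIP and ABCG1 lay too low to test.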
